A study of Homo sapiens with 9 samples.

Results

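The 9 genes described here belong to the BET family and to P-TEFb with its inhibitors, and they were measured in COR-L279 cells. They are the BET genes BRD2 and BRD3, the kinase gene CDK9 with its cyclins CCNT1 and CCNT2, and the inhibitory components HEXIM1, HEXIM2, LARP7 and MEPCE. The genes were chosen by symbol, and the deposited table of normalized counts held all 9, in 17518 genes. The cells, a long-established human line derived from small cell lung cancer, carry the subtype label SCLC-N, the subtype named for the neurogenic factor NEUROD1, and the genotype label WT, and every group is this 1 line. Cells were kept for 24 h in DMSO, the vehicle, in 0.5 µM JQ1 or in 1.5 µM JQ1. Each group held 3 libraries of total RNA, called biological replicates, which makes 9 libraries. Nothing in the labels says whether the replicates were separately grown cultures, so the p-values measure the spread between these libraries.

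BET proteins carry paired bromodomains that bind acetylated lysines of histones and other proteins, and JQ1 occupies the acetyl-lysine pocket. P-TEFb, a dimer of CDK9 with cyclin T1 or T2, phosphorylates RNA polymerase II and its pausing factors, which releases the paused enzyme into elongation. Much of the cell's P-TEFb is held inactive in a particle built on the 7SK RNA, where HEXIM1 or HEXIM2 blocks the kinase, LARP7 binds the 3′ end of 7SK and MEPCE caps its 5′ end. HEXIM1 is widely used as a marker of exposure to BET inhibitors.

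As recovered from the normalized counts, the libraries held 60721187 to 88482001 reads in the 17518 genes that have such counts. Markers of the labelled line were present in all 9 libraries: NEUROD1 lay between 264 and 365 FPKM and INSM1 between 326 and 368, while the leukocyte gene PTPRC did not exceed 0.02 FPKM. FPKM counts fragments per kilobase of transcript, scaled to library size, and is the measure used here to set genes beside each other. Some JQ1 libraries stood apart within their group. H19 had 1476 to 2071 normalized counts in 0.5 µM replicate 3 and in 1.5 µM replicates 1 and 2, against at most 82.8 in the other libraries. The same 3 libraries had 390 to 489 normalized counts of SLC2A3, against at most 3.52 elsewhere, and calls on the 9 genes that change without them are given both ways. On FPKM, H19 was higher in DMSO replicate 3 (6.80) than in the other DMSO libraries (0.52 and 0.55). In normalized counts the DMSO libraries were much closer, with 71.0, 63.8 and 82.8 in replicates 1, 2 and 3. SLC2A3 was listed at 0 FPKM in DMSO replicate 3. In 0.5 µM replicate 2, LARP7 and BRD3 lay far from the other replicates of that dose, as described with those genes. In bulk RNA, fewer cells of a type and less RNA per cell cannot be told apart.

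HEXIM1 was 4.87-fold higher after 0.5 µM and 6.20-fold higher after 1.5 µM JQ1 than in DMSO, and its relative HEXIM2 fell at both doses. BRD2 was 1.97-fold and 2.14-fold higher at the respective doses. BRD3, CDK9 and CCNT2 rose by less at both doses, as did MEPCE, whose change was the smallest that passed among the 9 genes. At 0.5 µM, 6 of the 9 genes passed the limma test as higher, 1 as lower, and 2 (CCNT1 and LARP7) did not pass. Of all 17514 genes tested, 70.0% passed at this dose, 35.3% as higher and 34.7% as lower. At 1.5 µM, 7 genes were higher, 1 was lower and 1 (LARP7) did not pass, against 73.1% of all genes, 36.9% higher and 36.2% lower. On normalized counts, 8 of the 9 genes had no overlap between 0.5 µM and DMSO (72.6% of all tested genes had none), and all 9 had none between 1.5 µM and DMSO (81.7% of all). On FPKM, LARP7, MEPCE and CCNT1 overlapped DMSO at 0.5 µM, and LARP7 and CCNT1 at 1.5 µM. The share of all genes without overlap was not computed on FPKM. The median log2 fold change of the 9 genes was 0.28 at 0.5 µM and 0.26 at 1.5 µM, beside -0.01 and -0.0030 over all genes tested. Taken without sign, the median log2 change over all genes tested was 0.38 at 0.5 µM and 0.43 at 1.5 µM. Among the calls, CDK9 (0.25 and 0.26) and MEPCE (0.13 and 0.18) lay below these medians at both doses. CCNT1 (0.20) and CCNT2 (0.36) lay below at 1.5 µM. Since most genes of the cells passed, the number of calls alone does not set the 9 genes apart. Both doses were compared with the same DMSO libraries, so their results are not independent of each other.

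**Figure D1:**
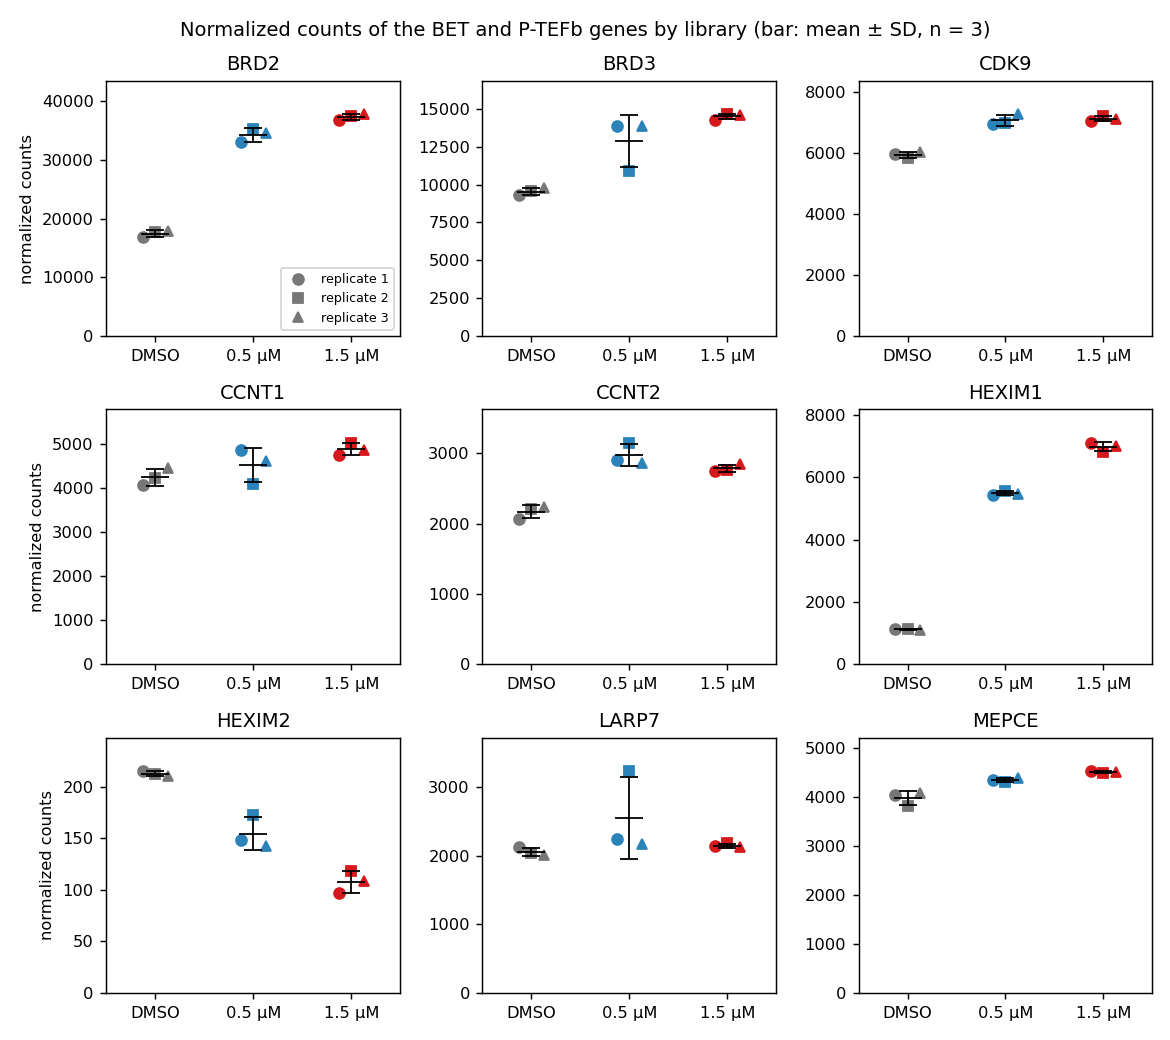
Normalized counts (vertical axes, each from 0) of the 9 genes in each library, by group; points are libraries (symbol shape gives the replicate number) and bars are mean ± SD, n = 3. HEXIM1, BRD2, BRD3, CDK9 and CCNT2 lie above DMSO in every JQ1 library, HEXIM2 lies below it, and single 0.5 µM points stand off in LARP7 (3230.5) and BRD3 (10889).

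BRD2 (ENSG00000204256.8), a BET reader present in most cell types, rose at both doses. Its normalized counts were 16807, 17662 and 17855 in DMSO, 32987, 35202 and 34662 at 0.5 µM, and 36765, 37521 and 37793 at 1.5 µM. The 3 groups did not overlap, and each JQ1 library lay far above all DMSO libraries. The log2 fold change was 0.97 ± 0.034 (SE) at 0.5 µM (limma adjusted p = 4.61e-09) and 1.10 at 1.5 µM (adjusted p = 1.06e-09). The SE of a gene is the same at both doses, since the fit shares 1 spread and each group has 3 libraries. Of all tested genes, 94.6% and 94.0% had a lower log2 fold change than BRD2 at these doses.

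BRD3 (ENSG00000169925.12), the paralog best known for binding acetylated GATA1, rose as well. It had 9282, 9573 and 9745 normalized counts in DMSO, 13868, 10889 and 13851 at 0.5 µM, and 14299, 14647 and 14579 at 1.5 µM. All JQ1 libraries were above all DMSO libraries, but 0.5 µM replicate 2 was 0.35 log2 units below the mean of the other 2 libraries of its dose. It rose by a log2 fold change of 0.42 ± 0.078 at 0.5 µM (limma adjusted p = 0.000641) and 0.61 at 1.5 µM (adjusted p = 4.01e-05). Without 0.5 µM replicate 2 the former was 0.54. BRDT, the germ-cell BET gene, was listed at 0 FPKM in all 9 libraries.

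CDK9 (ENSG00000136807.7), the catalytic subunit of P-TEFb, rose by a small amount that hardly differed between the doses. Its normalized counts were 5961, 5835 and 6040.1 in DMSO, 6969.9, 6989 and 7276 at 0.5 µM, and 7040.4, 7209 and 7125 at 1.5 µM. All 6 JQ1 libraries were above the DMSO libraries and the doses overlapped. CDK9 was higher by 0.25 ± 0.030 log2 units at 0.5 µM (limma adjusted p = 2.68e-05) and 0.26 at 1.5 µM (adjusted p = 1.64e-05). With upper-quartile scaling these values were 0.20 and 0.21, and both passed.

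The cyclin genes, whose products activate CDK9, did not follow the same order. CCNT1 (ENSG00000129315.5), the more abundant of them here, had 4069.9, 4218 and 4444 normalized counts in DMSO, 4859.6, 4097 and 4622 at 0.5 µM, and 4760.3, 5027 and 4852 at 1.5 µM. The 0.5 µM libraries overlapped those in DMSO, and the log2 difference of 0.09 (95% interval -0.04 to 0.22) did not pass (limma adjusted p = 0.20). Without 0.5 µM replicate 2, the lowest of its dose, it was 0.16 (adjusted p = 0.00346). At 1.5 µM CCNT1 was higher by 0.20 (adjusted p = 0.0106), a call lost on FPKM values, where it was 0.13 (adjusted p = 0.144), with upper-quartile scaling (0.15, adjusted p = 0.0513) and without the 3 libraries with H19 (0.19, adjusted p = 0.134).

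CCNT2 (ENSG00000082258.8), which encodes cyclin T2, rose at both doses. Its normalized counts were 2070.4, 2209.9 and 2239 in DMSO, 2906, 3151 and 2866 at 0.5 µM, and 2752, 2756 and 2847 at 1.5 µM. The JQ1 groups lay above DMSO without overlap, and the 1.5 µM group lay wholly below the 0.5 µM group. CCNT2 was higher by 0.45 ± 0.047 log2 units at 0.5 µM (limma adjusted p = 8.59e-06) and 0.36 at 1.5 µM (adjusted p = 4.18e-05).

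HEXIM1 and HEXIM2, which encode the kinase-blocking subunits of the 7SK particle, moved in opposite directions although they are neighbours. In the GENCODE annotation of GRCh38, HEXIM2 is the next protein-coding gene after HEXIM1 on the same strand of chromosome 17. In RefSeq, 1 other gene, HEXIM2-AS1, starts between them. The 250 bases before their RefSeq starts (GRCh38.p14, plus strand, 5′ to 3′) are shown because the pair differs in response across so short a distance. Capitals mark TATAAA and GGGCGG (or CCGCCC, the latter read on the other strand). HEXIM1 lies at chr17:45148225-45148474, the upstream HEXIM2 start at chr17:45159924-45160173 and the downstream HEXIM2 start at chr17:45161625-45161874.
HEXIM1: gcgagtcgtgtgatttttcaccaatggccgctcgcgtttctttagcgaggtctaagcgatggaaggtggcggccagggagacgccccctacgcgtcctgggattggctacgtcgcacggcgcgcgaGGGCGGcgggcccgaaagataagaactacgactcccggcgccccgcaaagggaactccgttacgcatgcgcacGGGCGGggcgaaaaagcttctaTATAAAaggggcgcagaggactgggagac
HEXIM2, upstream start: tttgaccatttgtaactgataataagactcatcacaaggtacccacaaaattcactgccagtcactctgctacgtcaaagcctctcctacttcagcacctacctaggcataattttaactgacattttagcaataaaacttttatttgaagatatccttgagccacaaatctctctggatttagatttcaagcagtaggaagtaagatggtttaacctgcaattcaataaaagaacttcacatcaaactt
HEXIM2, downstream start: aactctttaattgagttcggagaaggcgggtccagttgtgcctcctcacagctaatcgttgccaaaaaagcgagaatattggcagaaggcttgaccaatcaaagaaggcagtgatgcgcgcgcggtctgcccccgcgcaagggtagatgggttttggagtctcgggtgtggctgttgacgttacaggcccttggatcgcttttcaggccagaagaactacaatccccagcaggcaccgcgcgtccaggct

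The HEXIM1 window was the only 1 of the 17 windows before starts of the 9 genes that held TATAAA, searched on both strands. It began 29 bases before the start, on the gene's strand. TATAAA stood anywhere in 10.7% of 35116 such windows in RefSeq, and on the gene's strand 20 to 40 bases before the start in 2.30% of them. GGGCGG was in 12 of the 17 windows (42.6% of all windows), HEXIM1 included, and in neither HEXIM2 window. CCAAT was in 6 (32.0% of all) and CACGTG in 2 (6.34% of all). These are letter matches, and nothing in the data measures binding there.

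HEXIM1 (ENSG00000186834.2) had 1133, 1142 and 1101 normalized counts in DMSO, 5423, 5570 and 5469 at 0.5 µM, and 7101, 6819 and 7007 at 1.5 µM. The groups were far apart, and the replicates of each group lay close together. The log2 fold change was 2.29 ± 0.032 at 0.5 µM (limma adjusted p = 5.19e-11) and 2.63 at 1.5 µM (adjusted p = 1.26e-11). At 0.5 µM 99.4% of tested genes had a lower log2 fold change, and at 1.5 µM 99.3%.

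HEXIM2 (ENSG00000168517.6) had 215, 212 and 211 normalized counts in DMSO, 148, 173 and 142 at 0.5 µM, and 96.9, 118 and 109 at 1.5 µM. Each group lay wholly below the one before it. The log2 fold change was -0.47 ± 0.11 at 0.5 µM (limma adjusted p = 0.00384) and -0.98 at 1.5 µM (adjusted p = 1.72e-05). These values rest on 94 to 273 reads per library, for which counting error alone is 6.05% to 10.3% (as a coefficient of variation).

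LARP7 (ENSG00000174720.11), the La-related protein that stabilises 7SK, did not pass at either dose. Its normalized counts were 2119, 2035 and 2016 in DMSO, 2243, 3230.5 and 2166 at 0.5 µM, and 2135, 2179.5 and 2125 at 1.5 µM. All JQ1 libraries lay above all DMSO libraries, most of them narrowly, and 0.5 µM replicate 2 was 0.55 log2 units (1.47-fold) above the mean of the other 2 libraries of its dose. Of all tested genes, 89.8% lay closer to those 2 libraries in replicate 2, with a median distance of 0.14. The log2 difference was 0.28 ± 0.12 at 0.5 µM (limma adjusted p = 0.0576) and 0.06 at 1.5 µM (95% interval -0.21 to 0.33, adjusted p = 0.66). Without 0.5 µM replicate 2 it was 0.10 at 0.5 µM and passed (adjusted p = 0.0262), as it did in 7 of the 17 alternatives in all. Without the 3 libraries with H19 it was 0.39 and passed as well (adjusted p = 0.0436). On FPKM both JQ1 groups overlapped DMSO.

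MEPCE (ENSG00000146834.9), the capping enzyme of 7SK, had 4038, 3828 and 4089 normalized counts in DMSO, 4359, 4315 and 4396 at 0.5 µM, and 4535, 4497 and 4525 at 1.5 µM. The 3 groups did not overlap, though the steps between them were small. MEPCE was higher by 0.13 ± 0.033 log2 units at 0.5 µM (limma adjusted p = 0.00492) and 0.18 at 1.5 µM (adjusted p = 0.000482). On FPKM neither passed, with 0.03 (adjusted p = 0.50) and 0.08 (adjusted p = 0.0648). At 0.5 µM the call was also lost with upper-quartile scaling (0.08, adjusted p = 0.0691) and without the 3 libraries with H19 (0.12, adjusted p = 0.0531).

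RN7SK (ENSG00000202198.1), the 7SK RNA itself, has many near-identical copies in the genome, so its values are uncertain. It had 175, 146 and 107 normalized counts in DMSO, 193, 291 and 232 at 0.5 µM, and 277, 248 and 284 at 1.5 µM. All JQ1 libraries were above all DMSO libraries, with wide spread in DMSO and at 0.5 µM. RN7SK was higher by 0.74 ± 0.19 log2 units at 0.5 µM (limma adjusted p = 0.00475) and 0.94 at 1.5 µM (adjusted p = 0.000989).

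**Figure D2:**
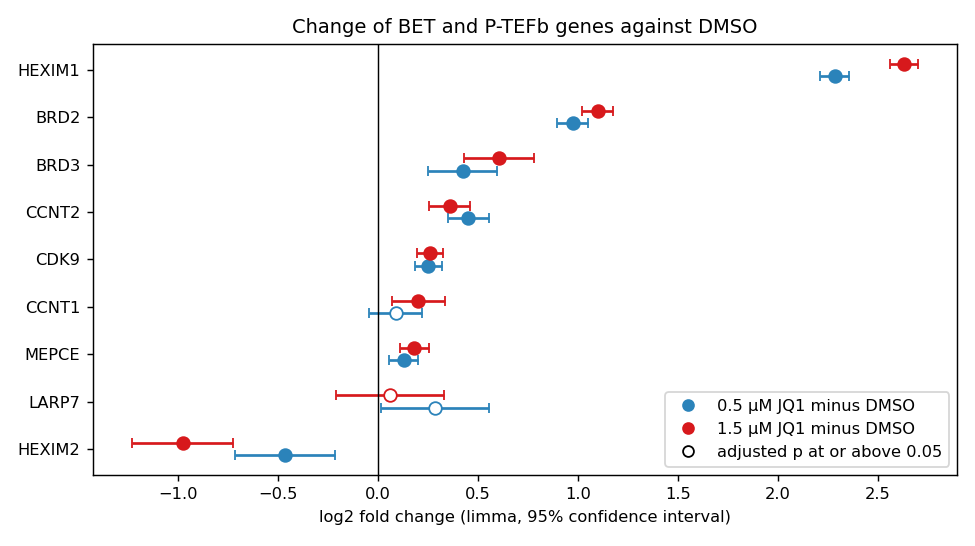
Log2 fold change against DMSO (horizontal axis) of each gene at 0.5 µM and 1.5 µM JQ1; points are limma estimates, open where the adjusted p missed 0.05, and bars are 95% intervals. HEXIM1 stands at 2.29 and 2.63, BRD2 near 1, and HEXIM2 at -0.47 and -0.98.

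**Figure D3:**
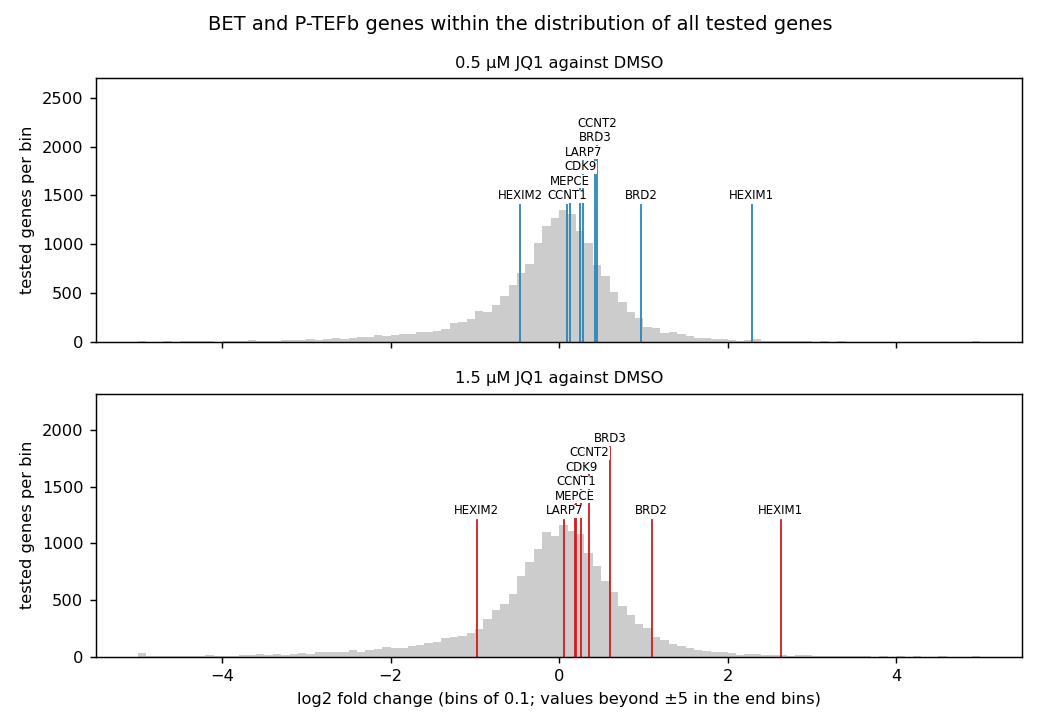
Number of tested genes (vertical axis) per bin of log2 fold change against DMSO (horizontal axis) at each dose, with vertical lines at the 9 genes. HEXIM1 lies in the right tail and HEXIM2 left of the centre, while CCNT1, MEPCE, CDK9 and LARP7 fall within the central bulk.

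The difference between the doses was smaller than that from DMSO. From 0.5 to 1.5 µM, 2 of the 9 genes passed as higher, 1 as lower and 6 did not pass, while 12.7% of all tested genes passed, 4.66% as higher and 8.09% as lower. On normalized counts the dose groups did not overlap in 6 of the 9 genes, against 33.7% of all genes. On FPKM the dose groups did not overlap in HEXIM1, HEXIM2 and MEPCE, and they overlapped in BRD2, BRD3, CDK9, CCNT1, CCNT2 and LARP7. No share over all genes was computed for this on FPKM. HEXIM1 was 0.35 log2 units (1.27-fold) higher at 1.5 µM than at 0.5 µM (limma adjusted p = 0.000279). BRD2 was 0.12 higher (adjusted p = 0.0417, which ranged from 0.0074 to 0.418 over the alternatives and passed in 9 of 17). That call was lost without each single JQ1 library other than 0.5 µM replicate 2. HEXIM2 was 0.51 lower (adjusted p = 0.0171), and 3.01% of tested genes had a lower value for this step. The HEXIM2 call was lost without 1.5 µM replicate 1 (adjusted p = 0.0590) or replicate 3 (0.0553) and when only the 6 JQ1 libraries were fitted (0.0639).

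The remaining genes gave intervals around small steps. For CDK9 the difference was 0.0096 (95% interval -0.06 to 0.08, limma adjusted p = 0.858), and for CCNT2 it was -0.09 (-0.20 to 0.0098, adjusted p = 0.216). For BRD3 it was 0.18 (0.0080 to 0.36, adjusted p = 0.157). Leaving out 0.5 µM replicate 2 brought the BRD3 step to 0.07 (adjusted p = 0.101). MEPCE differed by 0.05 (adjusted p = 0.315) and CCNT1 by 0.11 (adjusted p = 0.246), which was 0.04 without 0.5 µM replicate 2. CCNT2 gave -0.05 without that library. LARP7 differed by -0.22 (adjusted p = 0.255), and by -0.04 (adjusted p = 0.514) without 0.5 µM replicate 2. Without the 3 libraries with H19, the step of HEXIM1 was still 0.35 but its adjusted p was 0.0798. In the same fit the step of HEXIM2 was -0.55 (adjusted p = 0.198) and that of BRD2 0.15 (adjusted p = 0.331), and neither passed. That fit compares 1 library at 1.5 µM with 2 at 0.5 µM and assumes that the lone library varies like the others.

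On the length-scaled FPKM values, BRD2 was by far the most abundant of the 9 transcripts. In DMSO the mean FPKM was 117 for BRD2, 49.5 for CDK9, 28.2 for BRD3, 23.5 for MEPCE and 18.7 for LARP7. It was 9.70 for CCNT1, 7.27 for CCNT2, 3.60 for HEXIM2 and 3.54 for HEXIM1. The ranges of HEXIM1 and HEXIM2 overlapped in DMSO, and no other neighbours in this order did.

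JQ1 changed the place of HEXIM1 in that order. At 0.5 µM HEXIM1 reached 16.8 FPKM, above CCNT1 (10.0) and CCNT2 (9.58), which overlapped each other, and below LARP7 (22.5) and MEPCE (23.9), which did too. At 1.5 µM it reached 21.0 FPKM and stood between MEPCE (24.8) and LARP7 (18.997). HEXIM2 was the lowest of the 9 under JQ1, at 2.31 and 1.65 FPKM, and BRD2 stayed the highest, at 234 and 246 FPKM.

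**Figure D4:**
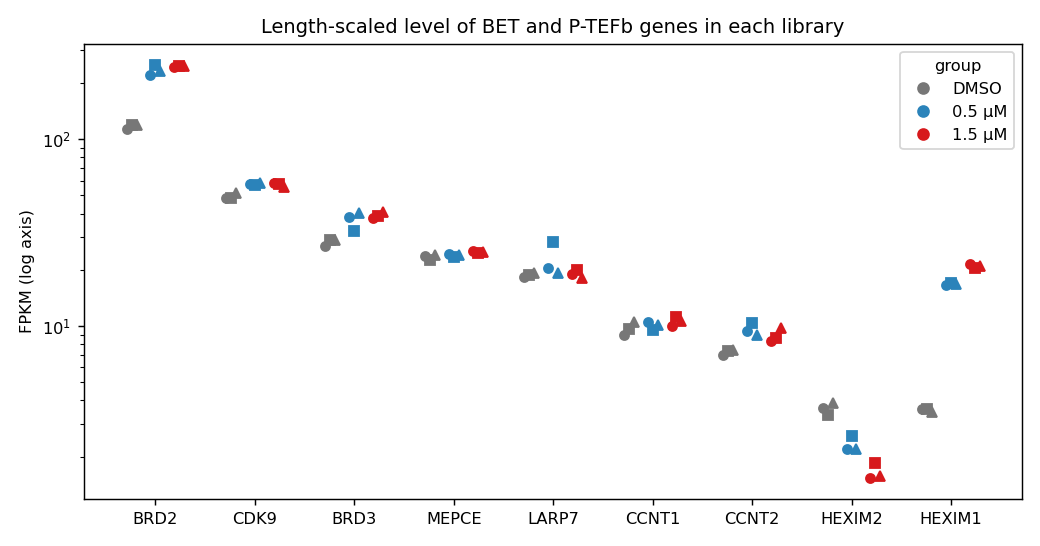
Length-scaled level of each gene (FPKM, log axis) in each library, coloured by group; points are libraries, and their shape gives the replicate number. BRD2 lies highest in all 3 groups, and HEXIM1 moves from the level of HEXIM2 (3.54 and 3.60 in DMSO) to 21.0 at 1.5 µM.

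Ratios within a library do not depend on how libraries were scaled, and they show how the composition of the transcripts shifted. They are descriptions of RNA, with no test. The ratio of HEXIM1 to HEXIM2 in FPKM was 0.989 on average in DMSO (range 0.899 to 1.08), 7.28 at 0.5 µM (6.64 to 7.63) and 12.8 at 1.5 µM (11.1 to 14.1). HEXIM1 thus made up 49.6% of the summed HEXIM transcripts in DMSO, 87.9% at 0.5 µM and 92.7% at 1.5 µM. This share depends on the transcript length used for scaling: 1 FPKM of HEXIM1 was worth 318 normalized counts in DMSO and 1 FPKM of HEXIM2 59.3.

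Relative to CDK9, the sum of the HEXIM transcripts rose, although HEXIM2 fell. The ratios of the other components of P-TEFb and the 7SK particle shifted by less. The summed HEXIM FPKM per CDK9 FPKM was 0.144 in DMSO (0.142 to 0.149), 0.332 at 0.5 µM (0.326 to 0.344) and 0.399 at 1.5 µM (0.391 to 0.409). The summed cyclins T per CDK9 were 0.342, 0.341 and 0.343 in the 3 groups, whose ranges overlapped. MEPCE per CDK9 was 0.473 in DMSO, 0.416 at 0.5 µM and 0.436 at 1.5 µM, with both JQ1 groups below DMSO. LARP7 per CDK9 was 0.378, 0.393 and 0.334, with 0.493 in 0.5 µM replicate 2.

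Among pairs of paralogs, BRD2 gained on BRD3 and CCNT2 on CCNT1. BRD2 per BRD3 was 4.17 in DMSO (4.12 to 4.25), 6.44 at 0.5 µM (5.75 to 7.76, the highest in replicate 2) and 6.27 at 1.5 µM (6.05 to 6.38). CCNT1 per CCNT2 was 1.33 in DMSO (1.28 to 1.42), 1.05 at 0.5 µM (0.911 to 1.12) and 1.19 at 1.5 µM (1.09 to 1.28). The 1.5 µM group overlapped DMSO in CCNT1 per CCNT2.

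**Figure D5:**
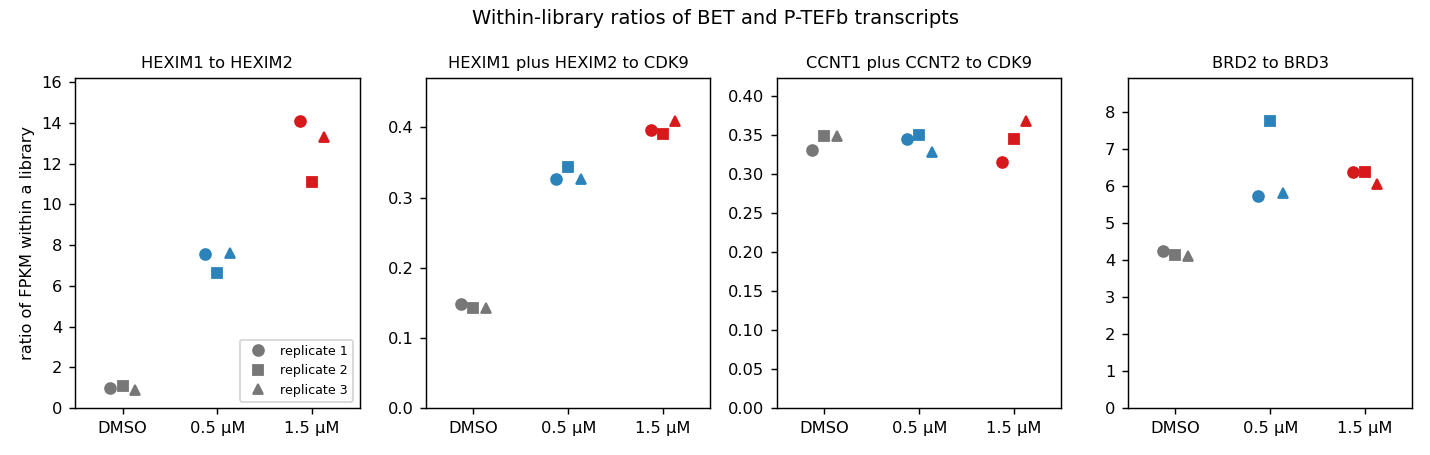
Ratios of FPKM values within each library (vertical axes from 0), by group; points are libraries, and their shape gives the replicate number. The HEXIM1 to HEXIM2 ratio goes from 0.989 in DMSO to 12.8 at 1.5 µM, while the cyclin T to CDK9 ratio has overlapping groups between 0.315 and 0.367.

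Genes with the pattern most like HEXIM1, HEXIM2 and BRD2 were found among 14226 genes with a mean of at least 100 normalized counts, by the root mean square difference of log2 values over the 9 libraries, centred on DMSO. Nearest to HEXIM1 were C5 (0.051), which encodes a complement protein, CADM2 (0.073), which encodes a cell adhesion protein, and C14orf37 (0.078), and 21 genes lay within 0.2. Nearest to HEXIM2 were RP11-672L10.2 (0.081), ELAVL4 (0.085), which encodes a neuronal RNA-binding protein, and HOXA10 (0.091), a homeobox gene, and 461 genes lay within 0.2. Nearest to BRD2 were PPP1R13B, MAN2B2 and CSRNP2 (0.031 each), with 706 genes within 0.2. With 9 libraries in 3 groups, likeness reflects mostly the sizes of the steps between the groups.

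Other genes of the pathway were read from 6 lists, which leave out the 9 genes; list medians are log2 fold changes at the respective doses. Of 15 genes of the super elongation complex and its P-TEFb partners, the 0.5 µM dose gave 5 higher and 5 lower, and the 1.5 µM dose 6 higher and 6 lower (list median 0.02 and 0.06). AFF4, the scaffold that binds P-TEFb, rose (0.46 and 0.61 at the doses), as did MLLT3 (0.91 and 1.05), a YEATS-domain reader. AFF3, a scaffold paralog, fell (-2.29 and -2.74), as did the elongation factor ELL2 (-0.75 and -0.86).

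Of 18 pausing and elongation factors, the 0.5 µM dose gave 5 higher and 5 lower, and the 1.5 µM dose 4 higher and 7 lower (list median 0.03 and -0.08). CTR9 (0.58 and 0.73), a subunit of the PAF elongation complex, and RTF1 (0.79 and 0.91), which works with that complex, rose. NELFCD (-0.50 and -0.75) and NELFA (-0.30 and -0.52), subunits of the factor that holds polymerase paused, fell.

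Of 14 other transcriptional kinases and cyclins, 10 were higher and 0 lower at 0.5 µM, with 8 and 1 at 1.5 µM (list median 0.20 and 0.16). CDK19, a Mediator kinase, rose most among the named (0.76 and 0.87), with CDK13 (0.35 and 0.45), CCNL1 (0.30 and 0.39) and CDK10 (0.31 and 0.35). On FPKM 5 of these 14 genes passed at 0.5 µM, where 10886 of all genes passed, against 12255 on normalized counts. With only the 6 libraries compared all 14 passed at 1.5 µM, where 14008 of all genes passed, against 12806 with the 9 libraries fitted.

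Of 17 factors reported to release or hold P-TEFb, the 0.5 µM dose gave 4 higher and 9 lower, and the 1.5 µM dose 4 higher and 10 lower (list median -0.10 and -0.18). The RNA helicase DDX21 (-0.64 and -0.78) and NUFIP1 (-0.42 and -0.67) fell, and PPP3CA (0.59 and 0.71), a catalytic subunit of calcineurin, and TRIM28 (0.44 and 0.61) rose. On FPKM 8 of the 17 passed at 0.5 µM, where 10886 of all genes passed, against 12255 on normalized counts.

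Of 7 cofactors bound by BET proteins, the 0.5 µM dose gave 2 higher and 2 lower, and the 1.5 µM dose 4 higher and 2 lower (list median 0.03 and 0.11). TAF3 (0.65 and 0.70), a TFIID subunit, and WHSC1L1 (0.22 and 0.23), which encodes the methyltransferase NSD3, rose, and JMJD6 (-0.44 and -0.59) fell. ATAD5 differed by 0.06 at 0.5 µM (limma adjusted p = 0.173) and rose by 0.18 at 1.5 µM.

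Bromodomain genes outside the BET family were read beside BRD2 and BRD3. Of 34 tested, the 0.5 µM dose gave 17 higher and 5 lower, and the 1.5 µM dose 19 higher and 6 lower (list median 0.10 and 0.14). The acetyltransferase paralogs KAT2B (1.62 and 1.49) and KAT2A (-0.86 and -1.05) went opposite ways, TRIM66 rose (1.55 and 1.95) and ZMYND8 fell (-1.04 and -1.40). All values named for the 6 lists passed the limma test unless a p is given, and the shares called are to be read beside the 70.0% and 73.1% of all genes.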

How the data were processed

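RNA of 9 libraries was isolated with an RNeasy kit and sequenced from TruSeq stranded total RNA libraries, per the labels' protocols. Reads were handled with cutadapt, STAR and RSEM on hg19, per the submitters' processing notes. Neither tool versions, nor the annotation release, nor how strand was treated in counting is given in the sources used here. Overlapping genes are therefore uncertain. The reference annotation at hand is of another build, so gene positions are not given except with the promoter sequences, which come from RefSeq (GRCh38.p14).

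Normalized counts deposited by the authors were the main measure: a signal in which each gene's count is divided by 1 size factor per library. A gene said to rise or fall thus does so relative to the other genes of the library, and these values do not give RNA per cell. In every library 100% of them came out as whole reads within 0.001, and these were used for edgeR 4.0.16 and DESeq2 1.42.0 as alternatives. FPKM values were also deposited by the authors, for 57820 genes, with 2 decimals. FPKM served to set genes beside each other, for within-library ratios, and as an alternative.

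Values were transformed to log2(normalized count + 1), and limma 3.58.1 (R 4.3.3) was fitted with its trend option to the 9 libraries together. Genes needed at least 10 normalized counts in at least 3 libraries, which kept 17514 and left out 4. All p-values are two-sided and adjusted by Benjamini-Hochberg over all tested genes within a comparison, with a threshold of 0.05. On this scale the changes of low genes are understated. The script was tested on simulated data in which only a small share of genes changed. Most genes passed in the real data, a setting that the simulation does not cover.

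The 9 genes and the pathway lists were chosen with earlier results of these data known, and so were the tests. Named beside the 9 genes are BRDT and RN7SK, the 3 genes nearest in pattern to HEXIM1, HEXIM2 and BRD2, and up to 4 genes per list. The latter passed at 1.5 µM, had a mean of at least 100 normalized counts and had the largest log2 fold changes of their list. A further gene that the rule names is not reported here.

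There were 17 alternatives per comparison. They were a pseudocount of 5, no filter, a filter of 50, log2(FPKM + 0.1) of genes with 0.5 FPKM or more in 3 libraries, scaling by TMM or by upper quartile, edgeR, DESeq2, a fit to only the 6 libraries compared, a replicate block, a fit without the 3 libraries in which H19 and SLC2A3 were high, and each library of a comparison left out in turn.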

Additional observations from a re-analysis of the deposited data

How the results depend on the processing

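BRD2, BRD3, HEXIM1, HEXIM2, CDK9 and CCNT2 kept their direction and passed at both doses against DMSO in all 17 alternatives. The difference between the doses was less stable: 2233 genes passed it, against 892 on FPKM, 1155 with only the 6 libraries compared, 90 without the 3 libraries with H19 and SLC2A3, and 995 to 3217 with single libraries left out. Fits that leave libraries out hold fewer libraries, but the highest count, 3217, came without 0.5 µM replicate 2. Without that library 12844 genes also passed at 0.5 µM against DMSO, beside 12255 with it. The causes of these differences, and of that on FPKM, were not tested. The CDK9 step between the doses turned to -0.013 on FPKM and was -0.0014 to 0.030 with single libraries left out (-0.0014 without 0.5 µM replicate 1). Taken from normalized counts, HEXIM1 plus HEXIM2 per CDK9 was 3.54 times its DMSO value at 0.5 µM and 4.42 times at 1.5 µM, beside 2.30 and 2.76 on FPKM, as 1 FPKM of HEXIM1 holds more counts than 1 FPKM of HEXIM2. BRD2 per BRD3 was 1.41 times DMSO at 1.5 µM (1.51 on FPKM), and MEPCE per CDK9 was 0.919 times at 0.5 µM (0.879 on FPKM). A replicate block passed 12329 genes at 0.5 µM, 12852 at 1.5 µM and 2030 between the doses, beside 12255, 12806 and 2233 without it. On the recovered reads edgeR passed 12240, 12897 and 2283 genes in these comparisons and DESeq2 12161, 12808 and 2853. Same-numbered libraries had correlations of deviations of -0.39 to 0.13, not every library correlated best with its own number, and the numbers were not used as a pairing. Between the JQ1 doses, only libraries alike in H19 and SLC2A3 correlated positively. These were 0.5 µM replicate 3 with 1.5 µM replicates 1 and 2 (0.25 and 0.23). The others were 0.5 µM replicates 1 and 2 with 1.5 µM replicate 3 (0.15 and 0.23). All other pairs between these doses were negative, and the cause was not tested. Depth limits HEXIM2 and RN7SK most, which rest on few reads.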

Other observations

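Genes that overlap the 9 genes or lie next to HEXIM1 and HEXIM2 were read by position alone, in the GENCODE annotation of GRCh38. CCNT2-AS1, antisense to CCNT2, was higher by 1.58 log2 units at 0.5 µM and 1.51 at 1.5 µM, a larger change than that of CCNT2 (0.45 and 0.36). Its level was low, with 41.4 to 46.7 normalized counts in DMSO. BRD3OS, opposite BRD3, was higher by 0.25 and 0.30, and HLA-DMA, which overlaps BRD2 on the other strand, by 1.60 and 1.91. HLA-DMA had 87.1 to 95.3 normalized counts in DMSO. ZCWPW1, which overlaps MEPCE, was lower, with log2 changes of -0.32 and -0.55, where MEPCE was higher. Beside the HEXIM pair, ACBD4 was higher by 0.45 at 0.5 µM (limma adjusted p = 0.0096) and differed by 0.16 at 1.5 µM (adjusted p = 0.283), and FMNL1 fell, with log2 changes of -1.49 and -1.64. Whether reads were shared between overlapping genes was not tested.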
